A study of Mus musculus with 10 samples.

Results

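Stiripentol, an antiseizure drug, was given at 250 μM for 48 h to mSCLC-2405 cells, a line of mouse small cell lung cancer, and the transcripts of 10 amino acid transporters were followed in 5 control and 5 stiripentol libraries. The transporters are Slc7a11, Slc7a5, Slc3a2, Slc7a1, Slc7a3, Slc38a1, Slc38a2, Slc1a4, Slc1a5 and Slc6a9. They were taken by symbol, as carriers commonly counted among the targets of the transcription factor ATF4, and all 10 are among the 26335 rows of the deposited table. Of these 10, 9 were tested, together with all other genes whose log2 CPM averaged above 0 (12306 in all), and Slc7a3 was below that level. CPM scales the reads of a gene to the total of its library, and the authors deposited their base-2 logarithm. Control cells received DMSO, the solvent, for the same time. Both groups come from 1 line, grown in RPMI medium with 10% FBS, which was derived from a primary lung tumor of a mouse model with conditional deletions, Rb1 among them, made by Cre delivered into the airway with an adenovirus, so the groups share these deletions. Control libraries held 22375625 to 65299372 reads and stiripentol libraries 55015760 to 60670901.

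ATF4 is a transcription factor whose translation rises when the initiation factor eIF2 is phosphorylated, as happens during amino acid shortage, stress of the endoplasmic reticulum or impaired mitochondrial respiration. Among its targets are carriers that bring amino acids into the cell and enzymes that make them. The transporters differ in what they carry. Slc3a2 (4F2hc, CD98) is the heavy chain that brings several light chains to the plasma membrane, among them Slc7a5 (LAT1), which exchanges large neutral amino acids such as leucine, and Slc7a11 (xCT), which takes up cystine in exchange for glutamate. Slc6a9 (GlyT1) carries glycine. Slc38a1 (SNAT1) and Slc38a2 (SNAT2) are sodium-coupled carriers of small neutral amino acids and glutamine, Slc7a1 (CAT-1) and Slc7a3 (CAT-3) carry arginine and lysine, and Slc1a4 (ASCT1) and Slc1a5 (ASCT2) exchange alanine, serine, cysteine and, for Slc1a5, glutamine.

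In each group the libraries formed 2 clusters. Controls 1 to 3 stood apart from controls 4 and 5, and stiripentol libraries 3 to 5 from stiripentol libraries 1 and 2. Pairs of libraries correlated across genes by 0.983 to 0.997 where they shared a cluster and by 0.920 to 0.939 where they shared only the group. Neither the sample records nor the methods say what a cluster is. The pairing of controls 1 to 3 with stiripentol 3 to 5 and of controls 4 and 5 with stiripentol 1 and 2 rests on a correlation of 0.211 of the cluster differences across 12297 genes, which is a description. The values given to genes without reads, -4.82 in controls 1 to 3 and -4.74 in the other 7 libraries, show that the libraries were normalized in 2 batches that do not coincide with these pairs. The methods say of the whole study that n counts independent biological samples, but nothing says that these libraries came from separate cultures, so p-values measure the spread between these libraries, which may be technical. Because RNA was taken from whole cultures, fewer cells of a kind and less RNA per cell cannot be told apart.

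With stiripentol, 2 of the 9 tested transporters rose, Slc3a2 and Slc6a9, and 1 fell, Slc38a2 (limma, Benjamini-Hochberg adjusted p under 0.05 over all genes tested). The other 6 tested transporters did not pass the test. Over all tested genes, 13.6% were called higher and 14.1% were called lower. The median log2 change was 0.22 over the 9 tested transporters and -0.06 over all tested genes. For 2 transporters every stiripentol library was above every control library, against 13.0% of all tested genes, and for 1 every stiripentol library was below every control library, against 14.3% of all tested genes. These are the same 3 transporters. The plot of transporter transcripts in each library shows the values described in the following paragraphs.

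**Figure D1:**
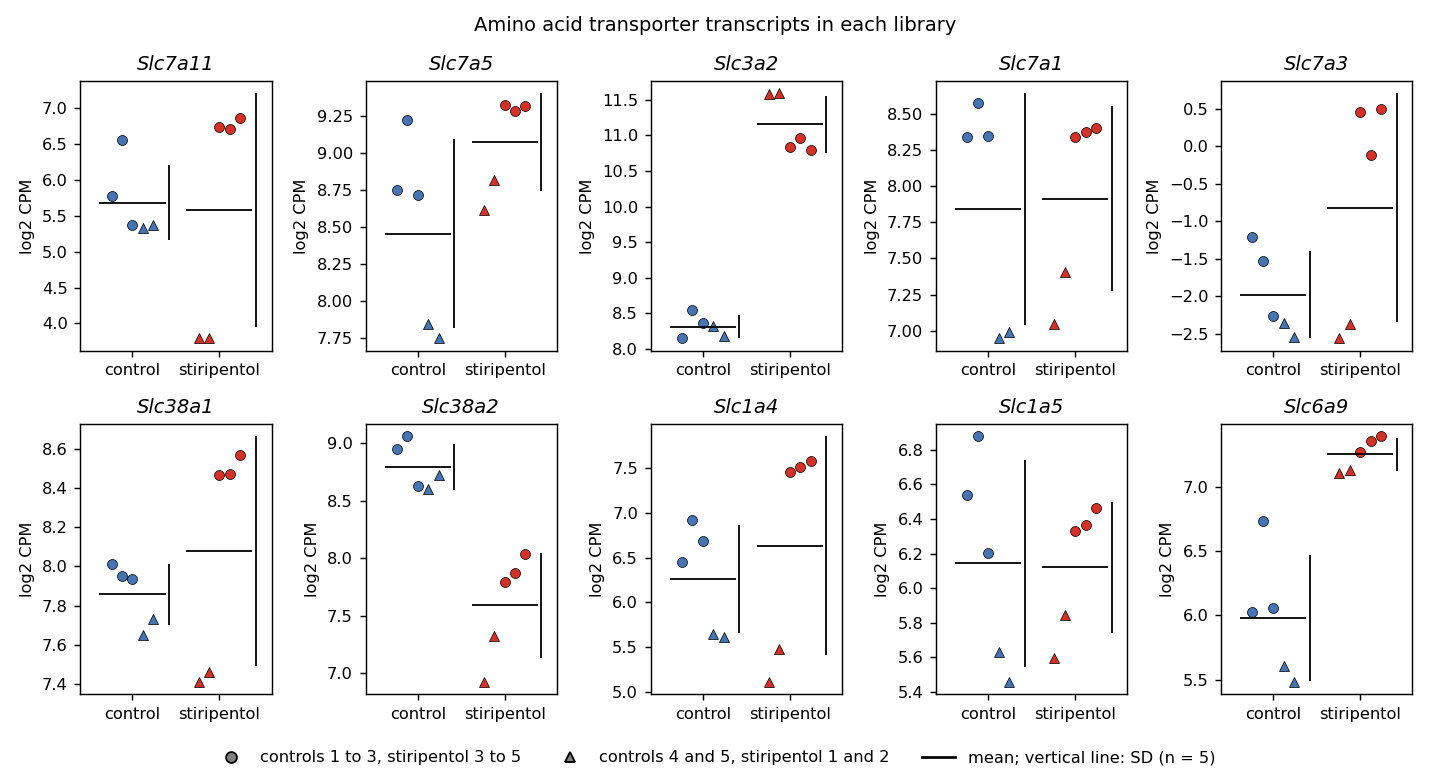
Each panel plots the log2 CPM of 1 transporter in the 5 control (blue) and 5 stiripentol (red) libraries, with circles for controls 1 to 3 and stiripentol 3 to 5, triangles for controls 4 and 5 and stiripentol 1 and 2, a horizontal line at the mean, a vertical line for the SD, and an axis range of its own. Slc3a2 and Slc6a9 are higher and Slc38a2 is lower in all 5 stiripentol libraries than in all 5 controls, whereas the stiripentol libraries of Slc7a11 lie on both sides of the controls.

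Slc3a2, the heavy chain, had the largest change of the transporters. The gene lies on chromosome 19 from 8706882 to 8723369 (GRCm38). Its log2 CPM was 8.15, 8.55, 8.36, 8.32 and 8.18 in controls 1 to 5. In stiripentol libraries 1 to 5 it was 11.58, 11.59, 10.84, 10.96 and 10.80. The groups did not overlap, and stiripentol libraries 1 and 2 were the highest. The mean was 8.31 ± 0.16 with DMSO and 11.15 ± 0.40 with stiripentol (SD, n = 5 each). The log2 change was 2.84 with a standard error of 0.18 (limma adjusted p = 1.67e-05), which is 7.18-fold. In reads, Slc3a2 had 6472 to 21681 per control library and 97862 to 186163 per stiripentol library. The rise was 3.34 for stiripentol 1 and 2 against controls 4 and 5, and 2.51 for stiripentol 3 to 5 against controls 1 to 3.

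Slc7a5, the leucine carrier that pairs with Slc3a2, lies on chromosome 8 from 121881146 to 121907686. Its log2 CPM was 8.75, 9.22, 8.71, 7.84 and 7.74 in controls 1 to 5 and 8.61, 8.82, 9.32, 9.28 and 9.32 in stiripentol libraries 1 to 5. Stiripentol 3 to 5 were above every control, and stiripentol 1 and 2 were within the control range. The log2 change was 0.62 (standard error 0.29, limma adjusted p = 0.127), with a 95% interval of -0.01 to 1.25. The 2 clusters of controls differed by 1.10, which is more than the change. Within the cluster pairs the change was 0.92 for stiripentol 1 and 2 against controls 4 and 5 (limma adjusted p = 1.4e-05) and 0.41 for stiripentol 3 to 5 against controls 1 to 3 (limma adjusted p = 0.0251). With the cluster pair as a term in the fit of all 10 libraries, Slc7a5 was called higher (limma adjusted p = 0.00336). With the clusters paired the other way, the log2 change was -0.18 for stiripentol 1 and 2 against controls 1 to 3 and 1.52 for stiripentol 3 to 5 against controls 4 and 5.

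Slc7a11, the cystine carrier, lies on chromosome 3 from 50364936 to 50499087. Its log2 CPM was 5.78, 6.56, 5.37, 5.33 and 5.37 in controls 1 to 5 and 3.80, 3.79, 6.74, 6.71 and 6.86 in stiripentol libraries 1 to 5. Stiripentol 1 and 2 were below every control, and stiripentol 3 to 5 were above every control, whichever clusters are paired. These libraries held 841 and 800 reads of Slc7a11 in stiripentol 1 and 2 and 6158 to 6396 reads in stiripentol 3 to 5. Over the 10 libraries the log2 change was -0.10 (standard error 0.66, limma adjusted p = 0.917), with a 95% interval of -1.57 to 1.36, so the average describes neither cluster. Slc7a11 was 2.94-fold lower in stiripentol 1 and 2 than in controls 4 and 5 (log2 change -1.56, limma adjusted p = 8.6e-07) and 1.82-fold higher in stiripentol 3 to 5 than in controls 1 to 3 (log2 change 0.87, limma adjusted p = 0.0203). With the clusters paired the other way, the changes were -2.11 for stiripentol 1 and 2 and 1.42 for stiripentol 3 to 5.

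The promoter of Slc7a11 is shown because ATF4 binds amino acid response elements, which share the core TGATGNAA, and because Slc7a11, with Slc38a1 and Slc1a4, moved in opposite directions in the stiripentol clusters. RefSeq promoter windows of 250 bases before to 50 bases after a start site (GRCm38.p6) were found for 6 of the 10 transporters, Slc7a11, Slc3a2, Slc38a2, Slc6a9, Slc7a1 and Slc1a4. On either strand, the core was found in 3.97% of 32851 windows, and 2 or more copies were found in 0.07%. Slc7a11 has 2 copies, 1 on each strand, the nearer ending 40 bases before the start site of its window. That start site lies inside the gene span given above. Slc1a4 has 1 copy, which spans the start. No copy was found in the windows of Slc3a2, Slc38a2, Slc6a9 and Slc7a1, which says only that these letters are not in these windows. The known element of Slc38a2 lies in its first intron, outside the window searched. The stretch before this start site of Slc7a11 (chr3:50443614-50443863, minus strand) follows. With it are the stretch before a start of Slc3a2 (chr19:8713898-8714147, minus strand), the transporter with the largest rise, and 30 bases around the start of Slc1a4 (chr11:20332706-20332735, minus strand). All run 5′ to 3′ along each gene, with the core in capitals.
Slc7a11: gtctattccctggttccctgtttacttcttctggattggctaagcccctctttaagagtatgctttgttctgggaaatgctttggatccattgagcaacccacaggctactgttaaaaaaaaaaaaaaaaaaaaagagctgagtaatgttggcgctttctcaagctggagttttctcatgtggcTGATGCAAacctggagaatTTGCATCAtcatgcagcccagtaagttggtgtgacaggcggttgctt
Slc3a2: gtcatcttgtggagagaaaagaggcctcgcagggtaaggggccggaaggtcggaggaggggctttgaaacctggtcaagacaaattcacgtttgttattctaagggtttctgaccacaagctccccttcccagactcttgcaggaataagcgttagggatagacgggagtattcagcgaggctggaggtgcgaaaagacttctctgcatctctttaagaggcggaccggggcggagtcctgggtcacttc
Slc1a4: tccagcgtgcctcctgcgTTGCATCAtctc
The core of the antioxidant response element, TGACNNNGC, at which the factor NRF2 binds, was searched in the same way. It was found in 12.4% of the windows, among them 2 of the 3 windows of Slc6a9, 1 of the 2 of Slc7a1 and the window of Slc38a2, and it was not found in the windows of Slc7a11, Slc3a2 and Slc1a4.

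Ratios of the light chains to the heavy chain within a library do not depend on how the libraries were scaled. Slc7a11 over Slc3a2, as a log2 ratio of CPM, was -2.36, -1.99, -2.99, -3.00 and -2.81 in controls 1 to 5 and -7.79, -7.80, -4.10, -4.26 and -3.94 in stiripentol libraries 1 to 5. All stiripentol libraries were below all controls, and stiripentol 1 and 2 were the lowest. The mean fell by 2.95 (two-sided exact permutation p = 0.00794, adjusted over 5 ratios 0.0132), from -2.63 ± 0.44 to -5.58 ± 2.03 (SD, n = 5). No arrangement of 5 against 5 libraries can give a p below 0.00794. Without control replicate 1 or control replicate 2, which leave 4 libraries against 5, the adjusted value of this ratio was 0.0529. Slc7a5 over Slc3a2 ranged from -0.49 to 0.68 in control and from -2.97 to -1.48 in stiripentol libraries, a change of -2.23 (exact permutation p = 0.00794, adjusted 0.0132). Over the 10 libraries Slc3a2 itself changed by 2.84, Slc7a11 by -0.10 and Slc7a5 by 0.62. Both falls therefore largely restate the rise of Slc3a2 and are not separate falls of the light chains, although Slc7a11 was itself low in stiripentol 1 and 2. When labels were exchanged only within the cluster pairs, the exact permutation p was 0.0167 for both ratios, and this scheme allows no smaller one.

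Slc6a9, the glycine carrier, was the other transporter that rose. It lies on chromosome 4 from 117835258 to 117869305. Its log2 CPM was 6.03, 6.73, 6.06, 5.61 and 5.48 in controls 1 to 5 and 7.11, 7.13, 7.27, 7.36 and 7.39 in stiripentol libraries 1 to 5. The groups did not overlap, and the stiripentol libraries spread less than the controls. The mean was 5.98 ± 0.49 with DMSO and 7.25 ± 0.13 with stiripentol (SD, n = 5 each), a log2 change of 1.27 with a standard error of 0.21 (limma adjusted p = 0.00206), which is 2.41-fold. The rise was 1.58 for stiripentol 1 and 2 against controls 4 and 5 and 1.07 for stiripentol 3 to 5 against controls 1 to 3. Exons of Slc6a9 overlap exons of B4galt2 and Ccdc24 on the other strand. No source states whether reads were counted by strand, so reads of the overlap cannot be told apart, but the highest log2 CPM of B4galt2 in any library was 4.79.

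The 2 system A carriers behaved differently. Slc38a2 (chromosome 15, 96687392 to 96699728) had a log2 CPM of 8.95, 9.06, 8.63, 8.61 and 8.72 in controls 1 to 5 and of 6.93, 7.32, 7.79, 7.87 and 8.04 in stiripentol libraries 1 to 5. All stiripentol libraries were below all controls, with stiripentol 1 and 2 the lowest. The mean was 8.79 ± 0.20 with DMSO and 7.59 ± 0.46 with stiripentol (SD, n = 5 each), and the log2 change was -1.20 with a standard error of 0.20 (limma adjusted p = 0.00241), a fall of 2.30-fold. The change was -1.54 for stiripentol 1 and 2 against controls 4 and 5 and -0.98 for stiripentol 3 to 5 against controls 1 to 3. Slc38a1 (chromosome 15, 96571418 to 96643438), which lies near it, was at 8.01, 7.95, 7.94, 7.65 and 7.73 in controls 1 to 5 and at 7.41, 7.46, 8.47, 8.47 and 8.57 in stiripentol libraries 1 to 5. As with Slc7a11, stiripentol 1 and 2 were below every control and stiripentol 3 to 5 above every control. Its log2 change over the 10 libraries was 0.22 (standard error 0.24, limma adjusted p = 0.513), with a 95% interval of -0.32 to 0.76.

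The log2 ratio of Slc38a2 to Slc38a1 was 0.69 to 1.11 in control and -0.67 to -0.14 in stiripentol libraries, without overlap. CPM is not scaled to gene length, so only the shift of the ratio is described. The shift was -1.42 (exact permutation p = 0.00794, adjusted 0.0132), and it was -1.29 and -1.51 in the cluster pairs of stiripentol 1 and 2 and of stiripentol 3 to 5. The spread of this ratio in stiripentol libraries was 0.21 (SD, n = 5), against 0.58 for Slc38a1 and 0.46 for Slc38a2 alone. In control libraries the spread of the ratio was 0.15, close to the 0.16 of Slc38a1, and that of Slc38a2 was 0.20.

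Neither cationic carrier passed the test. Slc7a1 (chromosome 5, 148327410 to 148399904) was at 8.34, 8.58, 8.35, 6.95 and 6.99 in controls 1 to 5 and at 7.04, 7.41, 8.34, 8.38 and 8.41 in stiripentol libraries 1 to 5. It differed between the clusters of control by 1.46 and between those of stiripentol by 1.15, and the log2 change with stiripentol was 0.07 (standard error 0.40, limma adjusted p = 0.902), with a 95% interval of -0.81 to 0.96. Slc7a3 (chromosome X, 101079146 to 101090452) had 3 to 26 reads in the controls, 8 and 9 reads in stiripentol 1 and 2, and 53 to 77 reads in stiripentol 3 to 5. Its mean log2 CPM of -1.40 was below the filter. Fitted without a filter, its log2 change was 1.16 (limma adjusted p = 0.303). The log2 ratio of Slc7a3 to Slc7a1 changed by 1.09 (exact permutation p = 0.0794, adjusted 0.0992, or 0.0397 without stiripentol 2), with -0.27 for stiripentol 1 and 2 against controls 4 and 5 and 2.00 for stiripentol 3 to 5 against controls 1 to 3.

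The ASC carriers did not pass the test either. Slc1a4 (chromosome 11, 20302180 to 20332713) was at 6.45, 6.92, 6.69, 5.65 and 5.62 in controls 1 to 5 and at 5.12, 5.49, 7.46, 7.51 and 7.57 in stiripentol libraries 1 to 5. This is the third transporter with stiripentol 1 and 2 below every control and stiripentol 3 to 5 above every control. The log2 change was 0.36 (standard error 0.53, limma adjusted p = 0.621), with a 95% interval of -0.80 to 1.53. Slc1a5 (chromosome 7, 16781334 to 16798274) was at 6.54, 6.88, 6.20, 5.63 and 5.46 in controls 1 to 5 and at 5.60, 5.85, 6.33, 6.36 and 6.46 in stiripentol libraries 1 to 5, within the control range in all 5. Its log2 change was -0.02 (standard error 0.28, limma adjusted p = 0.957), with a 95% interval of -0.65 to 0.60. The log2 ratio of Slc1a5 to Slc1a4 was 0.48 and 0.36 in stiripentol 1 and 2, above every control, and -1.15 to -1.11 in stiripentol 3 to 5, below every control, and the change of its mean was -0.39 (exact permutation p = 0.317, adjusted 0.317).

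**Figure D2:**
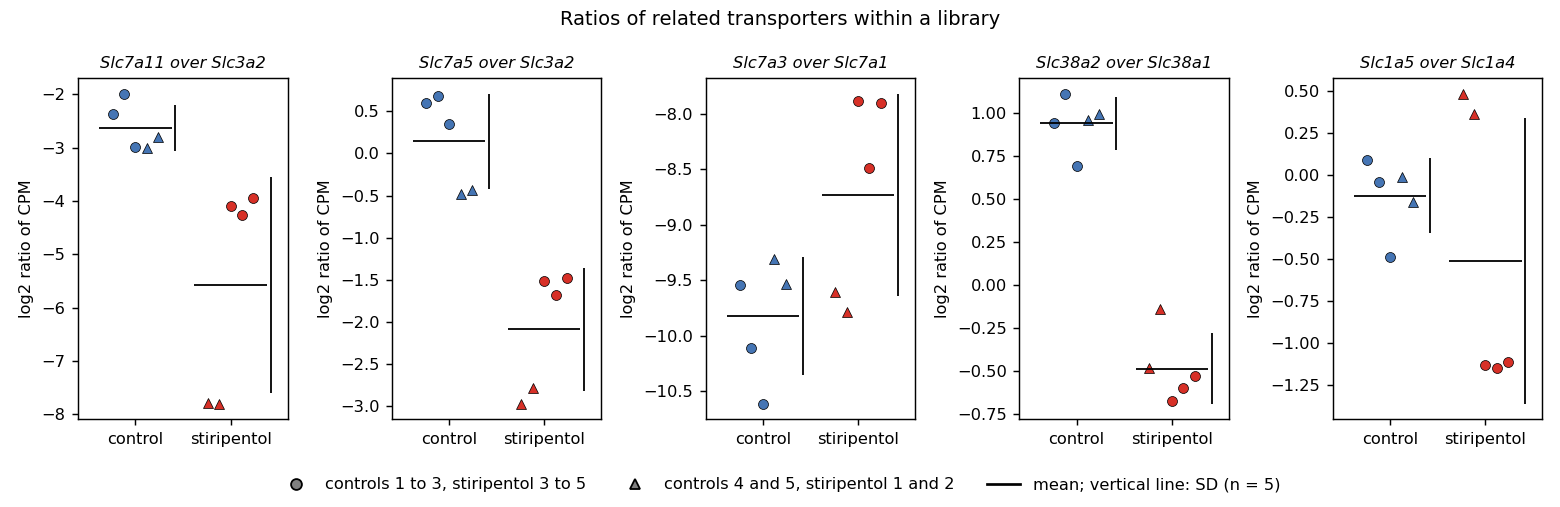
Each panel plots the log2 ratio of CPM of 2 related transporters in each library, with blue for control, red for stiripentol, circles for controls 1 to 3 and stiripentol 3 to 5, triangles for controls 4 and 5 and stiripentol 1 and 2, a horizontal line at the mean and a vertical line for the SD. The ratios Slc7a11 over Slc3a2, Slc7a5 over Slc3a2 and Slc38a2 over Slc38a1 are lower in all 5 stiripentol libraries than in all 5 controls. The groups overlap for Slc7a3 over Slc7a1, and for Slc1a5 over Slc1a4 the stiripentol libraries lie on both sides of the controls.

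Within the cluster pairs, more transporters passed the test. For stiripentol 1 and 2 against controls 4 and 5, 3 of 9 were higher (Slc3a2, Slc6a9 and Slc7a5) and 4 were lower (Slc7a11, Slc38a2, Slc38a1 and Slc1a4), where 25.7% of all tested genes were called higher and 46.5% lower. In this pair the median log2 change of all tested genes was -0.25, and of the transporters 0.18. In a fit added with the values known, each library was first centred on its own median log2 CPM over the tested genes. In that fit 5 transporters were higher and 2 were lower, where 38.5% of all tested genes were called higher and 36.2% lower. Slc1a4, at -0.03, and Slc38a1 were then no longer called. For stiripentol 3 to 5 against controls 1 to 3, 6 of 9 were higher (Slc3a2, Slc6a9, Slc1a4, Slc7a11, Slc38a1 and Slc7a5) and 1 was lower (Slc38a2), where 37.7% of all tested genes were called higher and 27.0% lower. The median log2 change in this pair was 0.08 over all tested genes and 0.54 over the transporters. Slc7a11, Slc38a1 and Slc1a4 were called in opposite directions in the 2 pairs, as were 13.7% of all tested genes.

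The change differed between the cluster pairs for 6 of the 9 tested transporters (limma interaction, adjusted p under 0.05), against 63.3% of all tested genes, so the share of the transporters was near that of the table as a whole. The largest difference was that of Slc7a11, with a change 2.42 higher on the log2 scale in the pair of stiripentol 3 to 5 (adjusted p = 0.000124). Slc1a4, with 1.16 (adjusted p = 0.000307), and Slc38a1, with 0.79 (adjusted p = 4.37e-05), differed in the same direction, as did Slc38a2, with a smaller fall in that pair. Slc3a2 and Slc7a5 rose less in the pair of stiripentol 3 to 5. For Slc6a9, Slc7a1 and Slc1a5 no difference passed the test (adjusted p = 0.0885, 0.103 and 0.222). With the clusters paired the other way, the interaction passed for all 9, against 71.9% of all tested genes. Taken in the same direction, Slc7a11 (3.53), Slc1a4 (3.27), Slc38a1 (1.34), Slc38a2 (0.99) and Slc3a2 (-0.62) kept their sign, and that of Slc7a5, Slc6a9, Slc7a1 and Slc1a5 turned. The median log2 CPM over the tested genes was 4.77 and 4.87 in stiripentol 1 and 2 and 5.11 to 5.20 in the other 8 libraries. After quantile normalization the interaction passed for 5 transporters, against 60.0% of all tested genes, and after median centring for 8, against 63.6%.

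**Figure D3:**
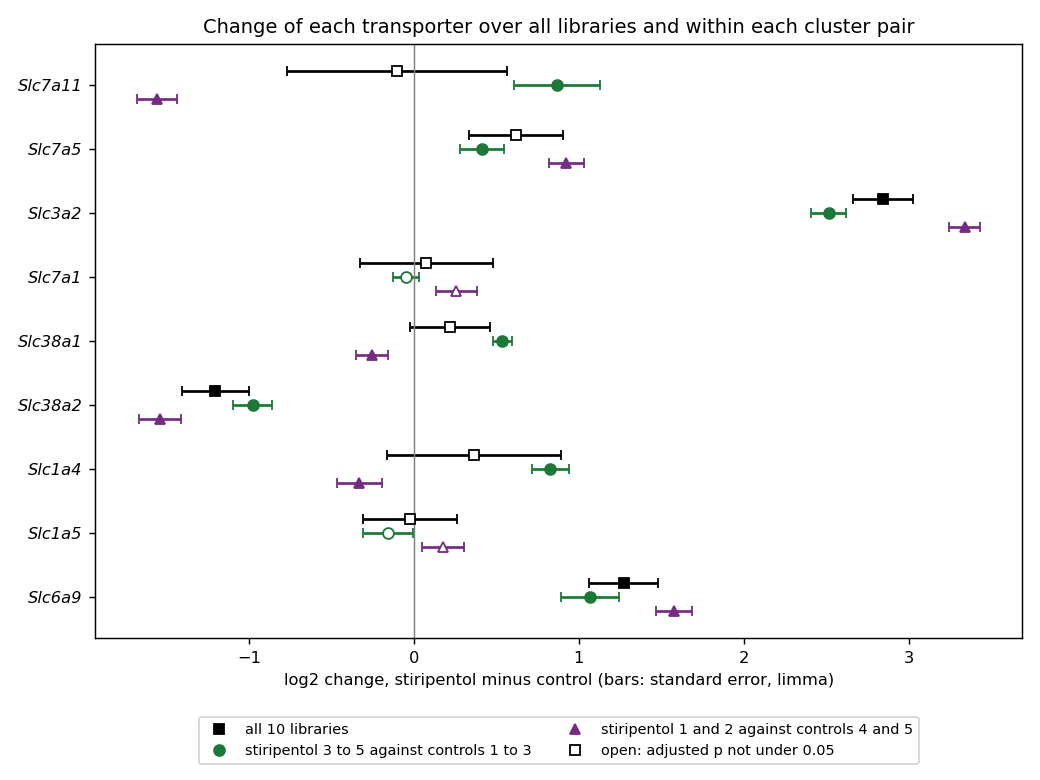
For each of the 9 tested transporters, the log2 change (stiripentol minus control) is plotted with its standard error for all 10 libraries (black squares), for stiripentol 3 to 5 against controls 1 to 3 (green circles) and for stiripentol 1 and 2 against controls 4 and 5 (purple triangles), with open symbols where the adjusted p is not under 0.05. Slc3a2, Slc6a9, Slc38a2 and Slc7a5 lie on 1 side of zero in all 3 fits, and Slc7a11, Slc38a1, Slc1a4, Slc7a1 and Slc1a5 lie on both sides.

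When the libraries of each cluster were averaged first, which leaves 2 means against 2, no transporter and no gene of the table passed the adjusted threshold in limma, while 1116 genes had an unadjusted p under 0.05. In that fit, Slc3a2 had a log2 change of 2.93 (unadjusted p = 3.86e-05, adjusted p = 0.162), Slc6a9 had 1.32 (unadjusted p = 0.00683, adjusted p = 0.424) and Slc38a2 had -1.26 (unadjusted p = 0.0075, adjusted p = 0.43). The 3 calls therefore hold only where each library counts as a replicate.

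Other genes under ATF4, with ATF4 itself and its regulators, were taken as a list of 23 genes, of which 22 were tested. Of these, 13 were higher and 2 were lower with stiripentol, against 13.6% and 14.1% of all tested genes. Their median log2 change was 0.78. Atf4 was at 8.91 ± 0.26 with DMSO and 10.00 ± 0.21 with stiripentol (SD, n = 5 each), a rise of 1.08 in its transcript (limma adjusted p = 0.000819), and it was higher in both cluster pairs, by 1.56 for stiripentol 1 and 2 and by 0.77 for stiripentol 3 to 5. The largest rises were those of Aldh1l2, a mitochondrial folate enzyme (2.38), Atf3, a stress-induced transcription factor (2.06), Ddit3, which encodes CHOP (1.95), and Ppp1r15a, which encodes GADD34, a subunit of the eIF2 phosphatase (1.86). Their limma adjusted p was 9.64e-05 to 0.00271. The 2 genes that fell were Stc2, a secreted glycoprotein hormone (-2.63, limma adjusted p = 0.0111), and Atf5, a transcription factor related to ATF4 (-0.86, limma adjusted p = 0.0237, or 0.0575 without control 1). Of the 4 eIF2 kinases, Eif2ak4, which encodes GCN2, had a log2 change of -0.48 (limma adjusted p = 0.0485) and the other 3 did not pass the test. The call of Eif2ak4 was kept only without control 1 or without stiripentol 5 and was lost in the other 8 fits that leave out 1 library. This concerns transcripts, and phosphorylation was not measured.

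Other plasma membrane and lysosomal amino acid carriers gave 35 genes in the table, of which 16 were tested. With stiripentol, 4 were higher and 2 were lower, with a median log2 change of -0.07. Over all tested genes, 13.6% were higher and 14.1% were lower, and the share of this list that was lower is close to that. Slc43a3, a carrier of purine nucleobases by current knowledge, rose by 1.70 (limma adjusted p = 0.00261). Slc38a7, a glutamine carrier, rose by 0.72 (limma adjusted p = 0.042), although its change was -0.11 for stiripentol 1 and 2 against controls 4 and 5. Slc38a9, an arginine sensor of the lysosome, rose by 0.68 (limma adjusted p = 0.0239), and Slc43a2, which encodes LAT4, rose by 0.44 (limma adjusted p = 0.0393). Slc36a4 fell by 0.85 (limma adjusted p = 0.0392), and Slc7a6, a light chain that also pairs with Slc3a2, fell by 0.66 (limma adjusted p = 0.0303). Leaving out 1 library left 0 to 3 lower and 1 to 4 higher calls in this list, with 0 lower and 1 higher without control 1 or without control 2. Slc43a3 was called in all 10 of these fits, and the calls of Slc38a9, Slc7a6, Slc38a7, Slc36a4 and Slc43a2 were lost in 3, 5, 6, 7 and 7 of them. Slc38a9 lost its call without control 1, control 2 or stiripentol 1.

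Lists of cysteine and glutathione synthesis, of NRF2 and its targets, and of amino acid sensing were also followed. Of 6 tested genes of cysteine and glutathione synthesis, 2 were higher and 0 were lower, against 13.6% and 14.1% of all tested genes. Cth, which makes cysteine from cystathionine, rose by 2.36 (limma adjusted p = 0.000334). It rose in both cluster pairs, by 3.17 for stiripentol 1 and 2 and by 1.83 for stiripentol 3 to 5. Ggct, an enzyme of glutathione breakdown, rose by 0.77 (limma adjusted p = 0.0166). The NRF2 list holds NRF2, its inhibitor and other targets of NRF2, which also has Slc7a11 as a target. Of its 7 tested genes, 1 was lower, Keap1, the inhibitor of NRF2 (-0.61, limma adjusted p = 0.0262), and 0 were higher. The share called lower is close to the 14.1% of all tested genes, and the call of Keap1 was lost without control 4, without control 5 or without stiripentol 2. Their median log2 change was -1.16 for stiripentol 1 and 2 against controls 4 and 5 and 0.60 for stiripentol 3 to 5 against controls 1 to 3. The median of all tested genes had the same signs, as did those of the other amino acid carriers, of cysteine and glutathione synthesis and of amino acid sensing. Among 13 tested genes of amino acid sensing upstream of mTORC1, 2 were higher and 2 were lower. Both shares are close to the 13.6% and 14.1% of all tested genes. Rragd, a Rag GTPase, rose by 2.24 (limma adjusted p = 0.00111), and Slc38a9 was the other that rose. Depdc5, a subunit of GATOR1 (-1.31, limma adjusted p = 0.0272), and Sesn1, a sestrin (-0.65, limma adjusted p = 0.00691), fell. Depdc5 lost its call without control 1, 2 or 3 or stiripentol 2.

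**Figure D4:**
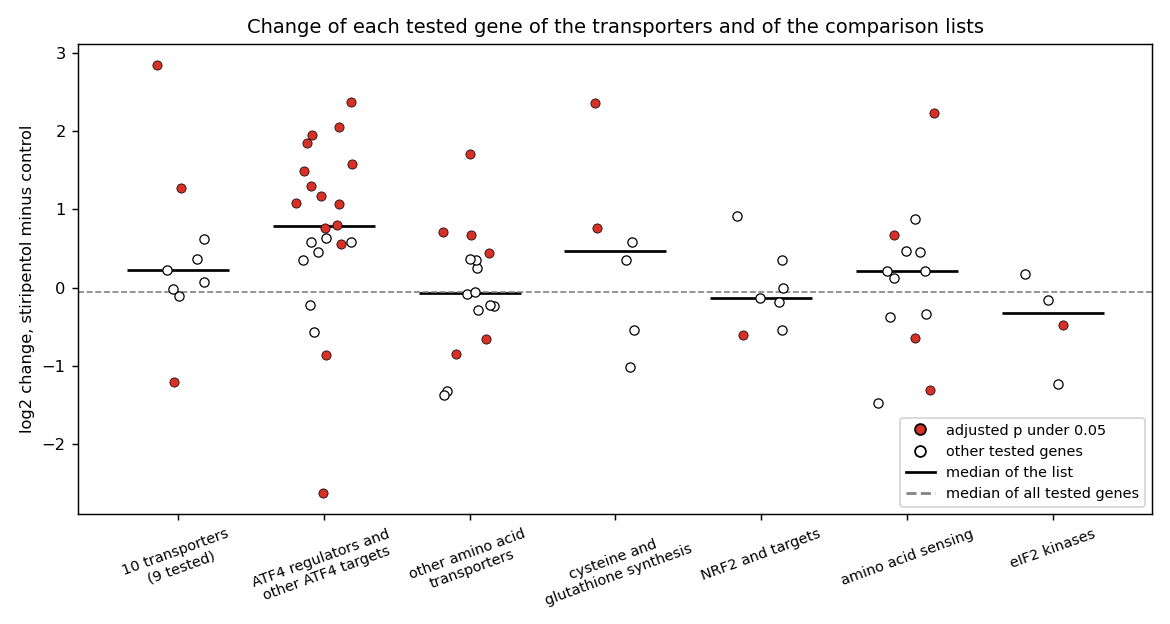
Each point is the log2 change (stiripentol minus control, 10 libraries) of 1 tested gene of the transporters or of a comparison list, filled red where the limma adjusted p is under 0.05, with a line at the median of the list and a dashed line at the median of all tested genes, -0.06; the horizontal spread within a list is for display only. The ATF4 list has its median at 0.78, and the medians of the transporters and of the other amino acid carriers are 0.22 and -0.07.

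The tested genes with the profile most similar to each of the 3 called transporters were found by the root mean square difference of centred log2 CPM over the 10 libraries. For Slc3a2 these were Cnbd2 (0.33), Angptl6 (0.37) and Ciart (0.38). For Slc6a9 they were Trib3, a pseudokinase of the ATF4 list (0.14), Gpt2, a mitochondrial alanine aminotransferase (0.15), and Steap1 (0.15). For Slc38a2 they were Glis2 (0.12), Pcdhb16 (0.12) and Nuak2 (0.12). The profiles include the difference between the groups, so a shared direction follows from the choice.

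The label of the line was checked against markers. Of 8 neuroendocrine markers, 5 are in the table and 2 were tested. Insm1, a neuroendocrine transcription factor, had at most 10 reads in a library and Syp, a synaptic vesicle protein, at most 20, whereas Ncam1 was at 6.69 in control and 7.15 in stiripentol libraries. Epcam had at most 1 read, and Krt8, an epithelial keratin, was at 10.13 and 9.77. Rb1 had reads in the deposited table, with a mean log2 CPM of 2.61 in control, and a count per gene does not say which exons they come from. Of the 7 tested mesenchymal markers, 4 were lower with stiripentol and 0 were higher, against 14.1% and 13.6% of all tested genes. Col3a1, a fibrillar collagen, had a log2 change of -5.71, Col1a2 of -2.30, Pdgfrb of -1.49 and Pdgfra of -1.27. The summed level of the 9 mesenchymal genes was 2724 to 3895 CPM in control and 2504 to 4700 CPM in stiripentol libraries. Vim, an intermediate filament, made up most of this sum, with 2089 to 3373 CPM in control and 2327 to 4548 CPM in stiripentol libraries, and was not called. Among 4 immune genes in the table, Ptprc, which encodes CD45, had at most 3 reads, and Cd68, a lysosomal protein, rose by 3.21, so that the summed level was 6.50 to 19.0 CPM in control and 59.0 to 103 CPM in stiripentol libraries. None of the 3 endothelial markers passed the filter, and Foxj1, the 1 airway marker in the table, changed by -2.02. The part of these shifts in the changes of the transporters was not tested.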

How the data were processed

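RNA of 5 control and 5 stiripentol samples of mSCLC-2405 cells was sequenced. The library kit is Lexogen QuantSeq (3′ mRNA) in the methods and TruSeq total RNA in the sample records, and which applies was not settled here. The values the authors deposited are log2 CPM, which the methods attribute to GENAVi, and the submitters' processing notes name the build mm10. The aligner, the gene annotation and strand settings are not given in the sources used here. The deposited table also holds group means, p-values, q-values and ratios of the authors' own comparison, which were not used. Columns were matched to the samples by name.

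Whole reads were recovered from 100% of the values checked (within 0.1 of a whole number), and the totals describe counting depth only. The 95% intervals come from the limma standard errors between libraries. Group, interaction and cluster fits used R 4.3.3 with limma 3.58.1 (two-sided, moderated with a mean trend) on the deposited log2 CPM, with Benjamini-Hochberg adjustment over the 12306 genes with a mean above 0. Ratios were compared by two-sided exact permutation tests (Python 3.11.15, numpy 2.4.6, scipy 1.17.1, pandas 2.3.3). The group fit of all 10 libraries and the interaction fit were tested on simulated libraries that held no clusters. The other fits were not tested in this way. Clusters of libraries were found by average linkage of correlations over genes other than the 10 transporters. Libraries with the same number deviated from the means of their groups with correlations of -0.24 to 0.06. These deviations hold the difference between the clusters, and most same-numbered libraries lie in clusters that are not paired here. The correlations therefore cannot show whether the numbers of the sample records pair the libraries.

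The transporters, the gene lists and the rules were chosen with earlier results of these data known. Named genes are the 10 transporters, Atf4, at most 4 called genes per direction of each list with the largest change, and the 3 nearest profiles of each of the 3 called transporters with the largest change. Alternatives were each library left out, a replicate block, the cluster pair as a term or alone, cluster means, 3 other scalings, other filters, log2(CPM + 1), limma voom, a minimum absolute change of 1 and robust eBayes. Crossed cluster pairs, the 7 libraries with 1 floor value and median centring within a pair were added after the values were seen. Gene positions are those of RefSeq on GRCm38.p6. The results of some genes of the marker lists are not reported here.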

Additional observations from a re-analysis of the deposited data

Results flagged for a closer look

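The change with stiripentol differed between the 2 cluster pairs, by the interaction test, for 6 transporters. As the log2 change for stiripentol 3 to 5 against controls 1 to 3 minus that for stiripentol 1 and 2 against controls 4 and 5, the values were 2.42 for Slc7a11, 1.16 for Slc1a4, 0.79 for Slc38a1, 0.56 for Slc38a2, -0.51 for Slc7a5 and -0.82 for Slc3a2. The clusters were found in the data, 63.3% of all tested genes passed the same test, and the pairing of the clusters is uncertain. Paired the other way, the sign turned for Slc7a5 and not for the other 5. Control 5, with 22375625 reads, stood apart from the other controls in depth, the 1 outlier among 32 groups of 5 values examined, where chance gives about 1 in 20, or 1.6. Slc3a2, Slc6a9 and Slc38a2 were also called without it.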

How the results depend on the processing

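Over 28 alternatives each, Slc3a2 kept a log2 change of 2.45 to 3.64, Slc6a9 of 1.01 to 1.88 and Slc38a2 of -1.54 to -0.98, and each passed the threshold in 27. The exception was 1 mean per group and cluster, which left 0 transporters called higher and 0 called lower. Each library left out gave 2 higher and 1 lower calls. Alone, the pair of stiripentol 1 and 2 gave 4 lower calls, or 2 lower and 5 higher after median centring, and that of stiripentol 3 to 5 gave 6 higher calls, with or without centring. The interaction count was 4 to 8 with 1 library left out, and the ratios past the threshold were 2 to 4. With the replicate block by the numbers of the sample records, in which 5 pairs allow no p below 0.0625, 0 ratios could pass, and the block moved the calls over all genes from 1740 lower and 1674 higher to 1062 and 1020; it changed the call of no transporter. The fit over all genes with 1 mean per group and cluster made 0 calls, with 1116 genes at an unadjusted p under 0.05, against 3336 lower and 2908 higher calls with the cluster pair as a term. The sign turned only for transporters not called over the 10 libraries. In the pair of stiripentol 1 and 2 it turned for Slc38a1 (-0.25), Slc1a4 (-0.33, or -0.030 after centring) and Slc1a5 (0.18, or 0.48 after centring), and in the pair of stiripentol 3 to 5 for Slc7a11 (0.87, or 0.80 after centring) and Slc7a1 (-0.049, or -0.11 after centring). Slc1a5 turned to 0.0100 with cluster means or crossed pairs, 0.044 with quantile normalization, 0.059 with median centring, 0.053 with median-of-ratios scaling and 0.57 in the 7 libraries normalized together, and Slc7a11 to 0.064 with quantile normalization and 0.23 in the 7 libraries. With 1 library left out, Slc7a11 was between -0.42 and 0.34, Slc1a5 between -0.19 and 0.16 and Slc7a1 between -0.15 and 0.29. The causes of these turns were not tested. Depth limits only Slc7a3, with 3 to 77 reads.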
